A study of Homo sapiens with 8 samples.

Results

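Amino acid transporters of MRC5 cells were examined on 8 expression arrays after exposure to 8-oxoguanine, the free oxidised guanine base. The members were 10 genes chosen by name, SLC7A5, SLC3A2, SLC7A11, SLC7A8, SLC7A1, SLC7A2, SLC1A4, SLC1A5, SLC38A1 and SLC38A2, out of 11963 genes named on the arrays. They were read by every probe set whose platform annotation gives 1 symbol that is among these names, which was 10 of 8746 probe sets on the 12 h arrays and 24 of 22215 on the 6 h arrays. MRC5 is an established line of human diploid lung fibroblasts, grown here in medium with serum and glutamine. The groups were cells given 10 µM 8-oxoguanine, 3 arrays at 12 h and 1 array at 6 h, and cells mock treated with the solvent for the same times, also 3 arrays and 1 array. The labels call the 12 h arrays technical replicates by extract, and nothing in them says that the extracts came from separate cultures, so the spread reported here may be technical. The labels conflict on time for 6 arrays, since the protocol text has 6 h throughout but the time field and description have 12 h, and the time field was followed. The genes were picked with the results of both contrasts already known, so every difference between treated and mock cells below is a description and carries no independent weight.

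Amino acid transporters of the solute carrier families set how fast a cell can take up, exchange and lose amino acids. Some are single chains. Among the members, the light chains SLC7A5, SLC7A8 and SLC7A11 exchange neutral amino acids or cystine. They reach the cell surface when linked to a heavy chain, the product of SLC3A2. Several of these genes are known in other cells as targets of the transcription factor ATF4, which is made when the kinases of the integrated stress response slow translation, for example when amino acids run short. In cultured fibroblasts the cystine carrier feeds glutathione synthesis, and the glutamine carriers feed growth.

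At 12 h, 7 of the 10 transporters rose in 8-oxoguanine cells, none fell, and SLC7A1, SLC38A2 and SLC7A8 did not pass the threshold. The call was an adjusted p under 0.05 in limma's moderated test over all 5248 probe sets kept, of which 6.59% were called higher and 6.65% lower in treated cells. The largest log2 fold changes were those of SLC7A2, a carrier of cationic amino acids (0.94, SE 0.10), and SLC7A5, the light chain of the large neutral amino acid exchanger LAT1 (0.89, SE 0.07). On all 3 treated arrays, 9 of the 10 genes had higher signals than on any mock array, against 17.4% of all probe sets kept (33.9% stood apart in either direction). The median log2 fold change of the 10 was 0.54, with 0.0072 over all probe sets kept. At 6 h the log2 ratios of the 18 member probe sets kept ran from -0.71 to 0.53. Their median was -0.03, with -0.03 over all probe sets kept at 6 h.

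Array means ran from 500.1 to 500.5 once the lowest and highest 2% of signals were set aside, and medians from 143 to 165 over all 8 arrays. Precision is limited by how few arrays there were. At 12 h the labels call them technical replicates, so the SEs, intervals and adjusted p may not cover the spread between cultures. These are bulk samples, in which a change in every cell and a change in the mix of cells cannot be told apart. Fibroblast markers were bright at 12 h, their summed signal over 8 genes being 60463 to 74488 on treated and 61459 to 74760 on mock arrays, with 2 of the 8 called higher, PDGFRB (0.30, SE 0.08) and LUM (1.07, SE 0.17), and 1 lower, S100A4 (-0.58, SE 0.09). The part of these changes in the members' values was not tested. Of the 6 epithelial markers on the array, EPCAM, CDH1 and KRT5 were below the limit of the filter on dim probe sets. So were 3 of 4 endothelial and 2 of 4 blood markers on the array. SFTPC, another epithelial marker, was kept and not called, as were the 1 endothelial and 2 blood markers left. Of 3 smooth muscle markers on the array, 1 was kept and not called. Its signals were 589 to 843 on treated and 765 to 918 on mock arrays. KRT18, a keratin that cultured fibroblasts also make, was bright, with mean signals of 3943 in treated and 3639 in mock cells. KRT19, another keratin, fell, with mean signals of 116 in treated and 277 in mock cells. At 12 h the ratio of the actin control signal from the 3′ end to that from the 5′ end of the message, a measure of RNA integrity, was 0.999 to 1.07 on treated arrays and 0.889 to 0.995 on mock arrays. The same ratio for GAPDH overlapped, at 0.802 to 0.843 on treated and 0.779 to 0.826 on mock arrays. At 6 h the actin ratio was 0.991 on the treated and 1.03 on the mock array. The GAPDH ratio went the other way, at 1.04 on the treated and 0.992 on the mock array. The part of these ratios in the results was not tested.

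**Figure D1:**
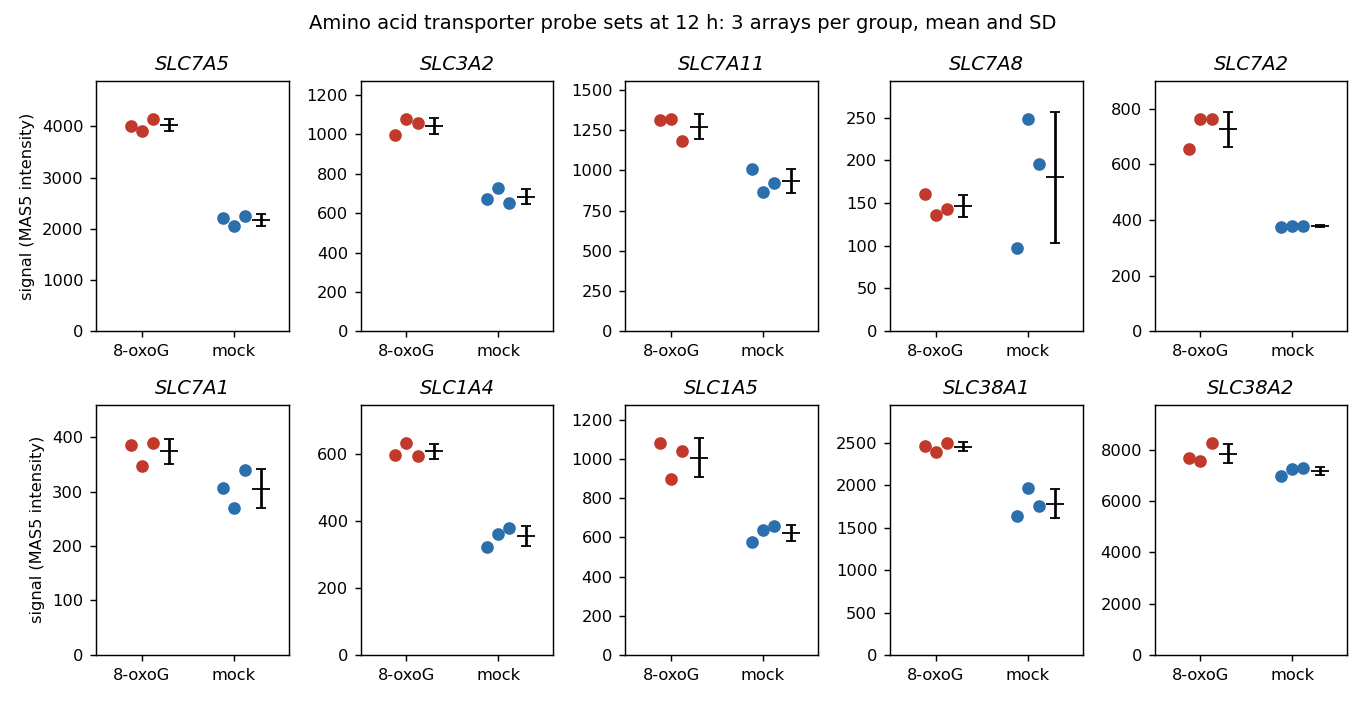
Signal (MAS5 intensity, linear axis from 0) of the 10 transporter probe sets on the 12 h arrays, with 8-oxoguanine arrays in red and mock arrays in blue (3 each) and the mean and SD in black beside them. The groups stand apart for 9 genes, narrowly so for SLC7A1 and SLC38A2, and overlap for SLC7A8, whose mock arrays span 97.0 to 248.

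The promoter sequences of the members are shown because 7 genes rose together and because the C/EBP-ATF response element, through which ATF4 acts, has a short core. The core TGATGNAA was searched on both strands in RefSeq windows of 300 bases (GRCh38.p14), which run from 250 bases before to 50 after each annotated start. Of the 10 genes, 8 had 1 or more windows, 17 in all, and SLC7A11 and SLC7A2 had none. The core was found in 1 window each of SLC1A4, SLC1A5, SLC38A1, SLC3A2 and SLC7A1, which is 5 of 8 genes and 29.4% of the 17 windows, against 3.62% of all 35116 windows and 4.46% of all 27305 genes with a window. Only in SLC7A1 was this the window of the outermost start of the gene. In SLC1A4, SLC1A5, SLC38A1 and SLC3A2 it belonged to a start further inside the gene. The SLC3A2 match begins 38 bases into the transcribed part, with the start as base 1. The members had 2.125 windows per gene and all genes 1.286, so the share per window is the closer comparison. Over the genes kept at 12 h, 2.27% of windows held the TGATGNAA core. Several members are known targets of ATF4, and all were picked with the results of these arrays known. Their share is thus no separate support. The antioxidant response element core TGACNNNGC, read by NRF2 and related factors, was in 4 of 17 member windows (23.5%) and in 13.3% of all windows, in SLC7A5, SLC3A2, SLC7A1 and SLC1A5. Of the 5 genes with the TGATGNAA core, SLC7A1 did not pass the threshold at 12 h. The largest changes at 12 h were in SLC7A2, which had no window, and SLC7A5, whose window lacked the TGATGNAA core. A match describes the letters and is not a site of binding. The stretches run 5′ to 3′ on the strand of the gene, with the matched letters in capitals, the first 5 for TGATGNAA and the last 2 for TGACNNNGC. In SLC1A4 and SLC3A2 the TGATGNAA match is on the opposite strand and so reads as its reverse complement.
SLC1A4 (chr2:64989332-64989428, plus strand): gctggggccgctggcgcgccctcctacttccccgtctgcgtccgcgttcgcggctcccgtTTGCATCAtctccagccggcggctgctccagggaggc
SLC1A5 (chr19:46784864-46784971, minus strand): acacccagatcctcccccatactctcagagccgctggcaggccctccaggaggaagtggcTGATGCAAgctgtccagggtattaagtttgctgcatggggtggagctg
SLC38A1 (chr12:46266487-46266580, minus strand): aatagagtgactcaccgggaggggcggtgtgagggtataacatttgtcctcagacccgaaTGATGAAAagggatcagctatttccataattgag
SLC3A2 (chr11:62881719-62881748, plus strand): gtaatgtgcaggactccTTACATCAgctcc
SLC7A1 (chr13:29595659-29595741, minus strand): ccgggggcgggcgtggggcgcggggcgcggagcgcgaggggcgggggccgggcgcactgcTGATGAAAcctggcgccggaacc
SLC3A2, antioxidant core (chr11:62881602-62881710, plus strand): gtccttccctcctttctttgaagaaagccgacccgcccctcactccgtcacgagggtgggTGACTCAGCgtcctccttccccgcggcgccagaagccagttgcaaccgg
SLC7A5, antioxidant core (chr16:87869478-87869569, minus strand): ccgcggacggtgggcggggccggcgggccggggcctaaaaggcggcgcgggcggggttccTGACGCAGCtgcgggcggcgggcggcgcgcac

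The heterodimeric exchangers among the members share the SLC3A2 heavy chain. SLC7A5 (probe set 201195_s_at), the light chain that brings in leucine and other large neutral amino acids, had signals of 4009, 3907 and 4139.9 in treated cells, against 2209.8, 2047 and 2258 in mock cells. The groups were far apart, and the arrays of each differed by little, with means of 4019 ± 117 in treated and 2172 ± 111 in mock cells (SD, n = 3 each). Its log2 fold change of 0.89 (SE 0.07) is a fold of 1.85. RefSeq lists the pseudogenes SLC7A5P1 and SLC7A5P2, and whether they add to this signal was not tested.

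SLC3A2 (200924_s_at), which encodes the CD98 heavy chain, had signals of 998, 1078 and 1057 in treated cells, against 674, 728 and 650.3 in mock cells. No treated array overlapped a mock array, and the means were 1044 ± 41.4 in treated and 684 ± 39.97 in mock cells (SD, n = 3 each), a log2 fold change of 0.61 (SE 0.08). The heavy chain rose as its light chain did, with a smaller estimate. The 95% intervals overlapped, at 0.43 to 0.79 for SLC3A2 and 0.74 to 1.04 for SLC7A5. The log2 ratio of SLC7A5 to SLC3A2 within each array was 0.28 higher in treated cells, with no overlap between the groups.

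SLC7A11 (209921_at), the light chain of the cystine and glutamate exchanger xCT, had signals of 1313, 1317 and 1182 in treated cells, against 1011, 866 and 920.1 in mock cells. The groups did not overlap, and the means were 1271 ± 77.0 in treated and 932 ± 73.1 in mock cells (SD, n = 3 each). The log2 fold change was 0.45 (SE 0.09), the smallest among the 7 that rose. Within each array its log2 ratio to SLC3A2 was 0.16 lower in treated cells, with the groups overlapping, whereas SLC7A5 gained 0.44 on SLC7A11 with no overlap.

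SLC7A8 (216092_s_at), the LAT2 light chain and the closest relative of SLC7A5 in its substrates, had signals of 161, 136 and 143 in treated cells, against 97.0, 248 and 195 in mock cells. The mock arrays lay on both sides of the treated ones, and the log2 fold change was -0.19 (SE 0.31). Its sign depended on 1 mock array, the value being 0.090 without mock replicate 2 and -0.59 without mock replicate 1. The 95% interval of -0.88 to 0.49 does not reach the estimate for SLC7A5.

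The cationic amino acid carriers bring in arginine, lysine and ornithine as single chains. SLC7A2 (207626_s_at), the inducible CAT2, had signals of 654, 761 and 762 in treated cells, against 374, 379 and 379 in mock cells. The mock arrays were almost alike and all treated arrays lay well above them, with means of 726 ± 62.0 in treated and 378 ± 3.28 in mock cells (SD, n = 3 each), a fold of 1.92. SLC7A1 (206566_at), the widely expressed CAT1 whose window holds the TGATGNAA core just after its start, had 385, 347 and 389 in treated cells, against 307, 269 and 340.1 in mock cells. The lowest treated array lay just above the highest mock array, and the log2 fold change of 0.30 (SE 0.12) did not pass. Within each array the log2 ratio of SLC7A2 to SLC7A1 was 0.64 higher in treated cells, with no overlap.

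The sodium-dependent exchangers of small neutral amino acids are SLC1A4, or ASCT1, which carries serine, alanine and cysteine, and SLC1A5, or ASCT2, a main route for glutamine. SLC1A4 (209610_s_at) had signals of 596, 633 and 595 in treated cells, against 322, 362 and 379 in mock cells. SLC1A5 (208916_at) had 1083, 897 and 1043 in treated cells, against 577, 638 and 657 in mock cells. Both pairs of groups were clearly apart. The log2 fold changes were 0.78 (SE 0.10) for SLC1A4 and 0.69 (SE 0.10) for SLC1A5, and the ratio between them within each array changed by 0.09 with the groups overlapping. These arrays do not separate the factors by which the 2 paralogs rose.

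The SLC38 carriers take up glutamine and alanine with sodium. SLC38A1 (218237_s_at), or SNAT1, had signals of 2466, 2397 and 2501 in treated cells, against 1636, 1966 and 1754 in mock cells. It rose by a log2 fold change of 0.46 (SE 0.08). SLC38A2 (220924_s_at), or SNAT2, a carrier known for its induction when amino acids are scarce, had 7682, 7553 and 8258 in treated cells, against 6987, 7243 and 7267 in mock cells. The arrays did not overlap, but the difference was small, with a log2 fold change of 0.13 (SE 0.07) that did not pass. The 64 probe sets of like signal, within 0.25 on the log2 scale, had a median log2 fold change of 0.06. SLC38A1 gained 0.34 on SLC38A2 within each array, with no overlap.

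Ordered by log2 fold change at 12 h, the members ran SLC7A2, SLC7A5, SLC1A4, SLC1A5, SLC3A2, SLC38A1, SLC7A11, SLC7A1, SLC38A2 and SLC7A8. The 95% intervals of neighbours in this order overlapped throughout, so the order of neighbours is not settled. The intervals of SLC7A2 (0.73 to 1.15) and SLC7A5 (0.74 to 1.04) lay wholly above those of SLC38A1 (0.28 to 0.64) and SLC7A11 (0.25 to 0.64). The median residual SD between arrays on the log2 scale was 0.10 for the members and 0.15 for all probe sets kept, and SLC7A8, at 0.51, was the widest member. Most members were bright, and their SD was not set against that of probe sets of like signal.

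Most other amino acid transporters on the array were too dim to be tested. Of 19 such genes on the 12 h array, 7 were bright enough to be kept. Among these 1 rose, 0 fell and 6 missed the threshold, and their median log2 fold change was -0.0090. The one that rose was SLC6A9, the glycine carrier GlyT1, with signals of 226, 186 and 192 in treated cells, against 109.8, 117 and 125 in mock cells, and a log2 fold change of 0.77 (SE 0.17). SLC7A6 and SLC7A7, light chains that also pair with SLC3A2, had -0.25 (SE 0.16) and 0.42 (SE 0.25) and did not pass. Of 56 other solute carriers kept, with the mitochondrial SLC25 family set aside, 1 rose (1.79%) and 3 fell (5.36%), with a median of -0.04, where 6.49% of all 4670 genes kept were higher and 6.64% lower. The 1 was SLC16A4, of the monocarboxylate carrier family (0.62, SE 0.15), and the 3 were SLC4A2, an anion exchanger (-0.68, SE 0.17), SLC20A1, a phosphate carrier (-0.32, SE 0.09), and SLC2A1, the glucose carrier GLUT1 (-0.30, SE 0.09). Of 11 SLC25 carriers, 1 fell, the ADP and ATP exchanger SLC25A4 (-0.44, SE 0.10), and none rose.

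Genes that sense or use amino acids are set here against the 6.49% of all genes kept that were called higher and the 6.64% called lower. Of 14 measured regulators and targets of the amino acid response, 6 rose, 1 fell and 7 did not pass, with a median log2 fold change of 0.28. TRIB3, a stress-induced pseudokinase, ASNS, which makes asparagine, NUPR1 and ATF3 led them, and ATF4 itself had mean signals of 4748 in treated and 3250.2 in mock cells, a log2 fold change of 0.54 (SE 0.12). EIF2AK3, or PERK, a kinase of the response, fell by 0.59 (SE 0.17). Of 15 genes listed with cystine and glutathione handling, beside SLC7A11, 5 rose and 10 did not pass. Among the 5 were CTH (0.80, SE 0.23) and CBS (0.40, SE 0.11), the enzymes that make cysteine from homocysteine. The glutathione-conjugate pump ABCC1 (0.33, SE 0.09) was another. The rest were HMOX1 (1.09, SE 0.10), a heme oxygenase, and NFE2L2 (0.63, SE 0.15), which encodes NRF2. Neither of these handles cystine or glutathione itself. GCLM, the regulatory subunit of the first enzyme of glutathione synthesis, had 0.30 (SE 0.11) and did not pass.

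Of 20 genes for enzymes that use the carried amino acids, 4 rose, 1 fell and 15 did not pass, with a median of 0.06, where 6.49% of all genes kept rose and 6.64% fell. The 4 were SAT1, a polyamine acetylase (0.57, SE 0.14), GLUL, or glutamine synthetase (0.55, SE 0.09), ASS1, which makes argininosuccinate on the way to arginine (0.53, SE 0.06), and GOT1, the cytosolic aspartate transaminase (0.33, SE 0.08). SRM, or spermidine synthase, fell by 0.33 (SE 0.09). Of 10 genes of amino acid sensing and the mTORC1 kinase, none rose, and RRAGA, a RAG GTPase, and LAMTOR5, a subunit of its lysosomal anchor, fell by 0.50 (SE 0.07) and 0.37 (SE 0.08). These lists were read from 1 probe set per gene, the brightest, and were drawn up with earlier results of these arrays known.

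**Figure D2:**
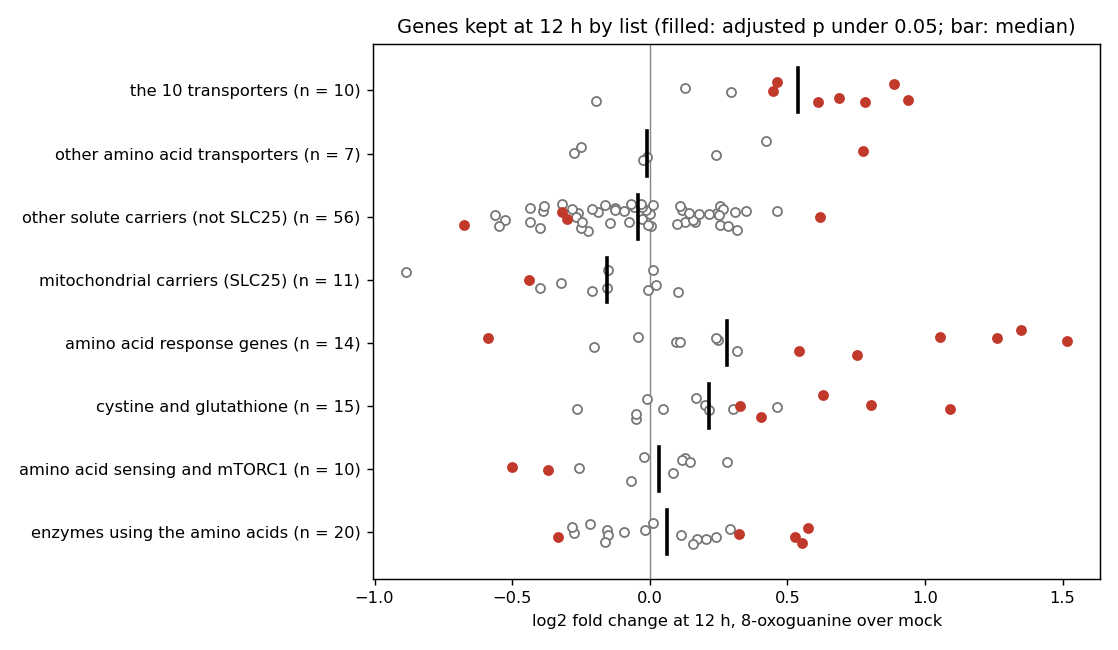
Log2 fold change at 12 h (8-oxoguanine over mock, horizontal axis) of each gene kept, by list, with genes past an adjusted p of 0.05 filled in red and the median of each list as a black bar. The 10 transporters have 7 filled points, all right of 0 with a median of 0.54, while the other amino acid transporters and the other solute carriers have medians of -0.0090 and -0.04.

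At 6 h, with 1 array per treatment, there was no replicate check and no test. Of the 24 member probe sets, 18 for 9 genes were above the limit of the filter, the median of all signals, and 7 of these 18 had a log2 ratio above 0, where 45.6% of all probe sets kept had one. Centring each array on its median, which moved all ratios up alike, made the count 13 of 18, against 61.1% of all probe sets kept. Quantile normalization made it 9 of 18, against 52.9%. The sign of a ratio near 0 at 6 h thus follows the scaling. One of the 18 was past 1.5-fold, and it was lower on the treated array, where 8.76% of all probe sets kept were past 1.5-fold, 3.32% higher and 5.44% lower. Of 11 fibroblast markers, 10 had a ratio above 0, with a median log2 ratio of 0.85, but most are very bright, and probe sets of like signal had ratios whose median over the 11 was 0.69. The median difference between a marker and its like-signal level was 0.12, and its part in the members' ratios was not tested. Of 16 regulators and targets of the amino acid response kept at 6 h, 12 had ratios above 0, with a median of 0.19. This list was neither rescaled nor set against probe sets of like signal. Whether its count goes beyond the effects of scaling and brightness was not tested.

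At 6 h, SLC7A5 gave a signal of 4235 with 8-oxoguanine and 3382 with solvent. The log2 ratio was 0.32, or 0.21 with quantile normalization and above the median of 0.13 for probe sets of like signal. Its partner SLC3A2 gave 1325 with 8-oxoguanine and 1358 with solvent. Here the log2 ratio was -0.03, against 0.08 after median centring and 0.02 after quantile normalization. The light chain and the heavy chain thus lay on different sides of 0 without scaling. The 3 probe sets of SLC7A11 had log2 ratios of -0.04, -0.17 and -0.42 on the deposited scale, none above 0. The first changed sign under both scalings, at 0.08 and 0.05.

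On the deposited scale SLC38A2 had the highest ratios of the 18 member probe sets kept, 0.53 and 0.40, with signals of 8157 and 7417 in treated cells and 5635 and 5639 in mock cells. Probe sets of like signal had medians of 0.43 and 0.41, and quantile normalization left log2 ratios of 0.12 and 0, below the 0.21 of SLC7A5. Transcripts this bright were generally higher on the treated array, whose brightest signal was 22762, against 10699 on the mock array, and the SLC38A2 ratios lay 0.10 above and 0.01 below the medians at their brightness. SLC38A1 gave 2551 with 8-oxoguanine and 2249 with solvent (log2 ratio 0.18), with a median of 0.03 for probe sets of like signal.

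The probe sets of SLC1A4 differed among themselves. One of them, 209610_s_at, the one also present on the 12 h array, gave 1325 with 8-oxoguanine and 2163 with solvent (log2 ratio -0.71). The other 3 had log2 ratios of 0.10, 0.03 and -0.01. SLC1A5 gave 2062 with 8-oxoguanine and 2230.2 with solvent (log2 ratio -0.11, or 0.0021 after median centring). SLC7A2 gave 232 with 8-oxoguanine and 281 with solvent (log2 ratio -0.27), and the 4 kept probe sets of SLC7A1 ran from -0.24 to 0.10.

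SLC7A8 was read by 5 probe sets at 6 h, all with a mean below the filter limit of 148 and each with more signal after 8-oxoguanine. The brightest gave 173 with 8-oxoguanine and 68.4 with solvent, the next 119 with 8-oxoguanine and 47.1 with solvent, and both had a log2 ratio of 1.34. The other 3 gave 9.21, 37.0 and 42.0 with 8-oxoguanine, against 6.78, 16.0 and 5.50 with solvent. These signals are dim, the arrays are single, and at 12 h the 216092_s_at probe set did not differ beyond the spread of its mock arrays.

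**Figure D3:**
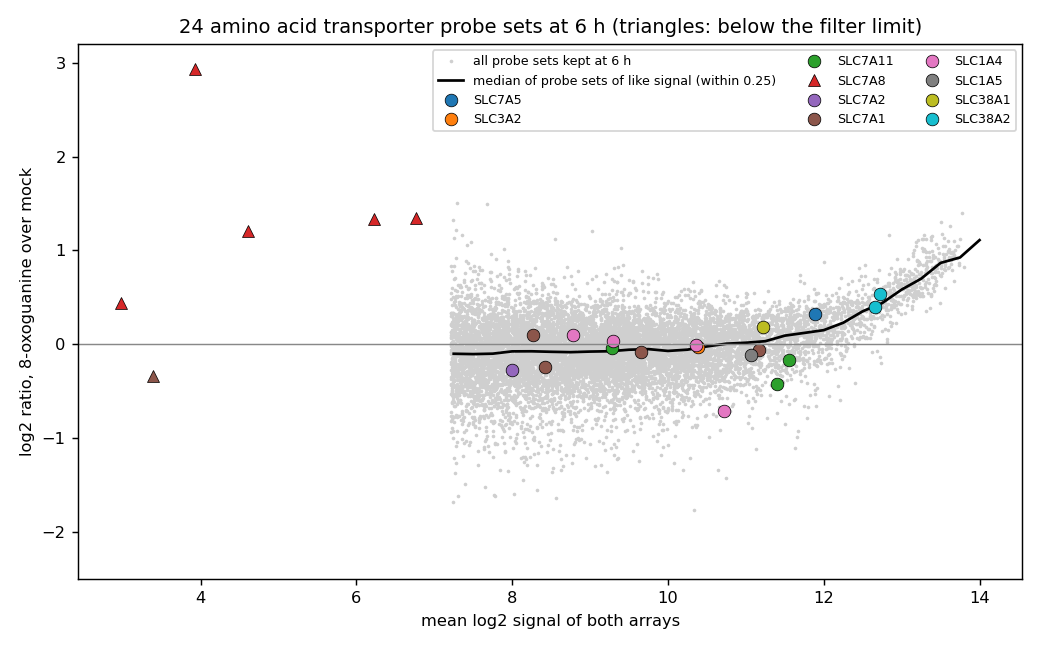
Log2 ratio at 6 h (8-oxoguanine over mock, vertical axis) against the mean log2 signal of both arrays, with all probe sets kept in grey, the 24 member probe sets in colour and the median of probe sets of like signal as a line. SLC38A2 lies on the rising end of the line near 0.43, the SLC1A4 probe set at -0.71 stands below it, and the 5 SLC7A8 triangles are below the limit of the filter.

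The 10 probe sets of the 12 h array are also on the 6 h array, and 9 were kept at both times. Of the 7 genes that rose at 12 h, SLC7A5 and SLC38A1 had 6 h ratios above 0 for the shared probe set, on the deposited scale. The shared probe sets of SLC7A2, SLC1A4, SLC1A5, SLC3A2 and SLC7A11 had ratios below 0. The other kept probe sets of SLC1A4 had 6 h log2 ratios of 0.10, 0.03 and -0.01. Time, array design and array number changed together here and cannot be told apart, and no test compared the times.

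**Figure D4:**
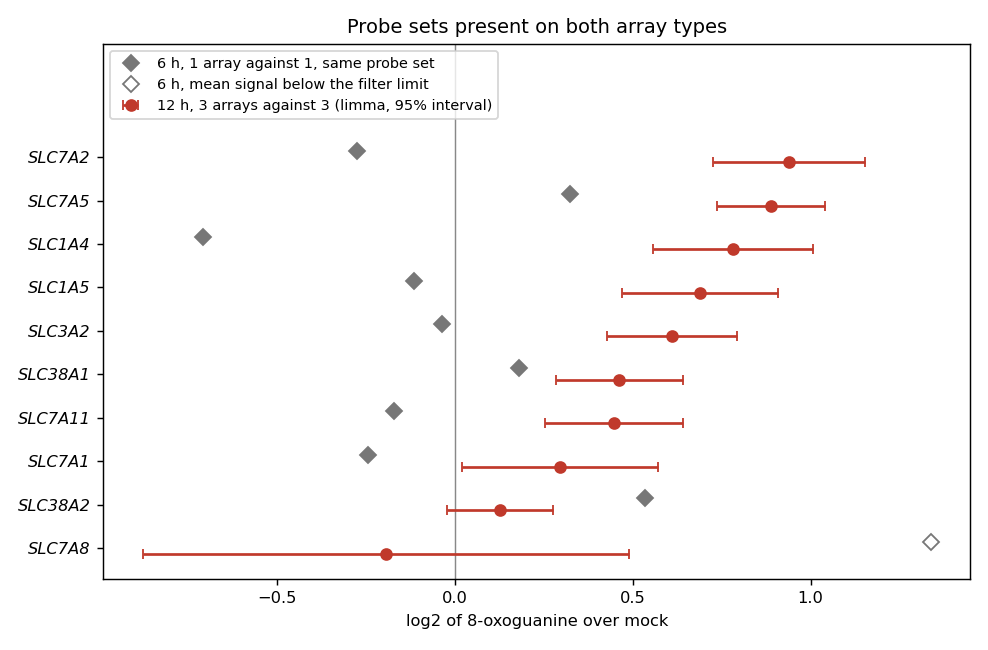
Log2 of 8-oxoguanine over mock (horizontal axis) for the 10 probe sets present on both array types, as red points with 95% intervals at 12 h (3 arrays against 3) and grey diamonds at 6 h (1 against 1, open where the signal was below the filter limit). At 12 h SLC7A2 is highest at 0.94 and SLC7A8 lowest at -0.19, while the 6 h diamonds of the probe sets kept lie between -0.71 and 0.53.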

How the data were processed

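Total RNA was labelled with biotin and read on single-colour short-oligonucleotide arrays, of a larger design at 6 h and a smaller one at 12 h. The authors deposited 1 linear intensity per probe set and array, and the submitters' processing notes name MAS5, with version and settings not given in the sources used here. No detection calls were used. The deposited intensity was put on the log2 scale as it stood. Control probe sets were dropped, as were probe sets with a mean log2 value below the 40th percentile at 12 h (a signal of 93.9, 5248 kept) or the 50th at 6 h (148, 11108 kept). All 10 member probe sets passed at 12 h and 18 of 24 at 6 h.

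At 12 h, limma 3.58.1 (R 4.3.3) was fitted to both groups with a trend of variance on intensity. Its two-sided p-values were adjusted by Benjamini-Hochberg over all probe sets kept, and the procedure was tested on simulated data. Each array was also compared with the others for duplicated values, and at most 1 probe set agreed exactly in any pair. At 6 h only ratios were computed. Gene names came from the platform annotation, and promoter windows from RefSeq (GRCh38.p14). The members and gene lists were chosen with earlier results of these data known. From each list, up to 4 called genes with the largest changes were named, plus up to 2 not called that a role pairs with a member. ATF4, EIF2AK3, ABCC1 and GOT1 lie outside that rule and were named after their values were seen.

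Replicate numbers of the labels were checked for pairing. Deviations of same-numbered extracts from their group means had correlations of 0.08, -0.15 and -0.05 over probe sets, so the numbers were not taken to pair the samples. Alternatives changed the scaling (median centring or quantile normalization), the filter (none, or the 60th percentile at 12 h and the 70th at 6 h), the log step (the 20th percentile of signals added first) or the model (no trend, or replicate number as a block). Others averaged the probe sets of a gene or dropped each 12 h array in turn.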

Additional observations from a re-analysis of the deposited data

Results flagged for a closer look

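For 6 of the 9 member probe sets kept at both times (66.7%), all 3 treated arrays lay above all 3 mock arrays at 12 h while the single treated array lay below the single mock array at 6 h. The log2 values at 12 h and 6 h were 0.94 and -0.27 for SLC7A2, 0.78 and -0.71 for SLC1A4, 0.69 and -0.11 for SLC1A5, 0.61 and -0.03 for SLC3A2, 0.45 and -0.17 for SLC7A11, and 0.30 and -0.24 for SLC7A1. These are values of single probe sets. At 6 h the other kept probe sets of SLC1A4 had 0.10, 0.03 and -0.01. Those of SLC7A1 had -0.08, 0.10 and -0.06, and those of SLC7A11 had -0.04 and -0.42. The 6 h values of SLC1A5 and SLC3A2 turned above 0 with median centring, at 0.0021 and 0.08. Of all 837 probe sets kept at both times whose treated arrays lay above all mock arrays at 12 h, 57.7% were below 0 at 6 h, a share near that of the members. No test compared the times.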

How the results depend on the processing

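The 7 member genes called at 12 h were called under all 13 alternatives run for that comparison, and when probe sets of 1 gene were averaged. Of 129 alternative values for the 10 members, 128 kept their direction and their side of the threshold. The exception was SLC7A8, which ran from -0.59 without mock replicate 1 to 0.090 without mock replicate 2, and which was removed by the stricter filter. The log2 fold change of SLC7A5 ran from 0.85 to 0.92, of SLC7A2 from 0.89 to 1.01 and of SLC7A11 from 0.40 to 0.51. Over all probe sets, 695 calls became 371 to 652 when 1 array was left out, the counts being 371 without 8-oxoguanine replicate 1, 383 without 8-oxoguanine replicate 2 and 450 without mock replicate 3. Fewer arrays entered each of these fits. With the replicate block 513 probe sets and the same 7 member genes were called. At 6 h the count of member probe sets above 0 was 7 of 18, 13 with median centring, which moved all ratios up, and 12 of 24 with no filter, which adds the dim SLC7A8 probe sets. At 6 h, median centring turned the sign of 6 of 18 ratios and quantile normalization of 3. Dim signals limit what can be said of SLC7A8.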

Other observations

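Over all genes tested at 12 h, the share with the TGATGNAA core in a promoter window was 9.27% of the 248 genes called higher that had a window, 1.53% of 261 called lower and 2.94% of 3402 not called. The members were not left out. The 23 genes called higher that held the core include SLC1A4, SLC1A5, SLC38A1 and SLC3A2, described above. Genes called higher had more windows each, and per window the shares were 5.74%, 0.998% and 2.09%. The TGACNNNGC core was in 21.4% of the genes called higher, 24.1% of those called lower and 21.1% of those not called. Of 18 listed regulators and targets of the amino acid response with a window, 5 held the TGATGNAA core, against 1 of 32 other amino acid transporters. Per window the shares were 16.7% and 2.17%, with 3.62% over all windows. The first list was made up in part of known targets of the response, so its share is no separate support. These shares were computed after the results were seen and were not tested.

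SLC38A2 was the brightest member at 12 h. The genes outside the members whose centred log2 values over the 6 arrays lay closest to its own, among 4735 probe sets, were LMO4, PBX3, EIF1, KRT18 and CAPN2, with root mean square differences of 0.02 to 0.03 and log2 fold changes of 0.08 to 0.16. They share its small difference between the groups, which the measure itself asks for.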
